A study of Mus musculus with 9 samples.

Results

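The insulin-like growth factor (IGF) family was followed here through 10 genes: the ligands Igf1 and Igf2, the receptors Igf1r and Igf2r, and the binding proteins Igfbp2 to Igfbp7. They were chosen by gene symbol, with 1 probe set each, out of 24011 named genes on the array. Earlier results of these data were known at that choice, so counts of members beside shares of all genes are descriptive only. All 10 were among the 17141 genes bright enough to be tested, and all 10 lay above the brightness filter in all 9 arrays. The cells were mouse primary myoblasts grown out of satellite cells, the resident stem cells of skeletal muscle. They were expanded in 20% fetal bovine serum with basic FGF and then moved to 2% horse serum, a low-serum medium in which myoblasts can leave the cell cycle and differentiate. In that medium 3 samples received BMP4 at 100 ng/ml, 3 received GREM1 at 500 ng/ml and 3 were mock-treated controls, and total RNA was taken after 24 h. BMP4 is a secreted bone morphogenetic protein that signals through SMAD factors, and GREM1 (gremlin 1) is an extracellular inhibitor that captures BMPs before they reach a receptor. No genotype, strain or age is given in the labels used here, and nothing states that the 3 replicates of a group came from separate cell preparations, so the p-values cover the spread among these arrays, which may be technical.

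IGF ligands bind Igf1r, a tyrosine kinase receptor that signals through adaptor proteins to the PI3K-AKT-mTOR and MAP kinase routes, and in muscle this supports myoblast proliferation, differentiation and fibre growth. Igf2r, the cation-independent mannose 6-phosphate receptor, binds Igf2 and removes it without signalling as a kinase. The binding proteins hold IGFs outside the cell and can limit or prolong their action, and proteases that cut them release the ligand.

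Values are log2 array intensities, so a difference of 1 is a doubling. Because each probe set has its own brightness, levels of different genes were not set against each other. Array medians lay between 5.00 and 5.12. The first principal component held 42.2% of the variance and placed the 3 GREM1 arrays between 16.0 and 27.5 with all other arrays below 0. The second held 20.9% and placed control replicate 1 at 31.6, apart from the next array at 6.12. All 10 myoblast markers, Pax7, Myod1, Myog and Des among them, were above the filter in all arrays. Their list mean was 9.06 to 9.12 in BMP4 arrays, 9.18 to 9.42 in GREM1 arrays and 8.75 to 9.11 in control arrays. Passing the filter does not by itself identify a cell type, since 6 of 8 pericyte and smooth muscle markers also passed it in each group. The transcript of Id1, a direct BMP target, averaged 10.14 with BMP4, 8.30 with GREM1 and 9.62 in controls. The GREM1 minus control difference of Id1 was -1.32 ± 0.21 (SE, adjusted p = 0.0117). Its BMP4 minus control difference was 0.52 ± 0.21 and did not pass after adjustment.

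GREM1 changed 3 of the 10 IGF family genes against control, at an adjusted p under 0.05 in limma's moderated test over all genes tested. Igf1r rose 1.52-fold, Igfbp3 rose 1.54-fold and Igfbp7 fell 1.72-fold. Among all genes tested 4.29% passed the same threshold, 2.08% higher and 2.21% lower. Before adjustment 6 of the 10 fell under 0.05, against 20.0% of all genes. The median difference of the 10 genes was 0.43, against -0.0057 for all genes tested, and 8 of the 10 differences were positive. With the replicate number as a block, 5 of the 10 passed, Igf1 and Igf2 being added on the higher side. Same-numbered GREM1 and control arrays deviated together, but matching by number was not established. Deviations of control 1 and GREM1 2 correlated at 0.159, above the 0.118 of control 2 and GREM1 2. The share of all genes tested that passed rose as well with the block, to 11.6%.

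Against control, 0 of the 10 genes passed with BMP4 in limma, also with the replicate block. This does not show that the genes were unchanged, since the direct BMP target Id1 did not pass in that comparison either. Before adjustment Igfbp7 and Igfbp3, 2 of the 10, fell under 0.05. The background was small too, since 0.117% of all genes tested passed the threshold (0.0933% higher and 0.0233% lower, and 0.379% in either direction with the block) and 8.02% were under the unadjusted limit. The median difference of the 10 genes with BMP4 was -0.01, against -0.0060 for all genes. Both comparisons use the same 3 control arrays, and the comparison of BMP4 with GREM1 uses the same treated arrays again, so the 3 sets of values are not independent.

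**Figure D1:**
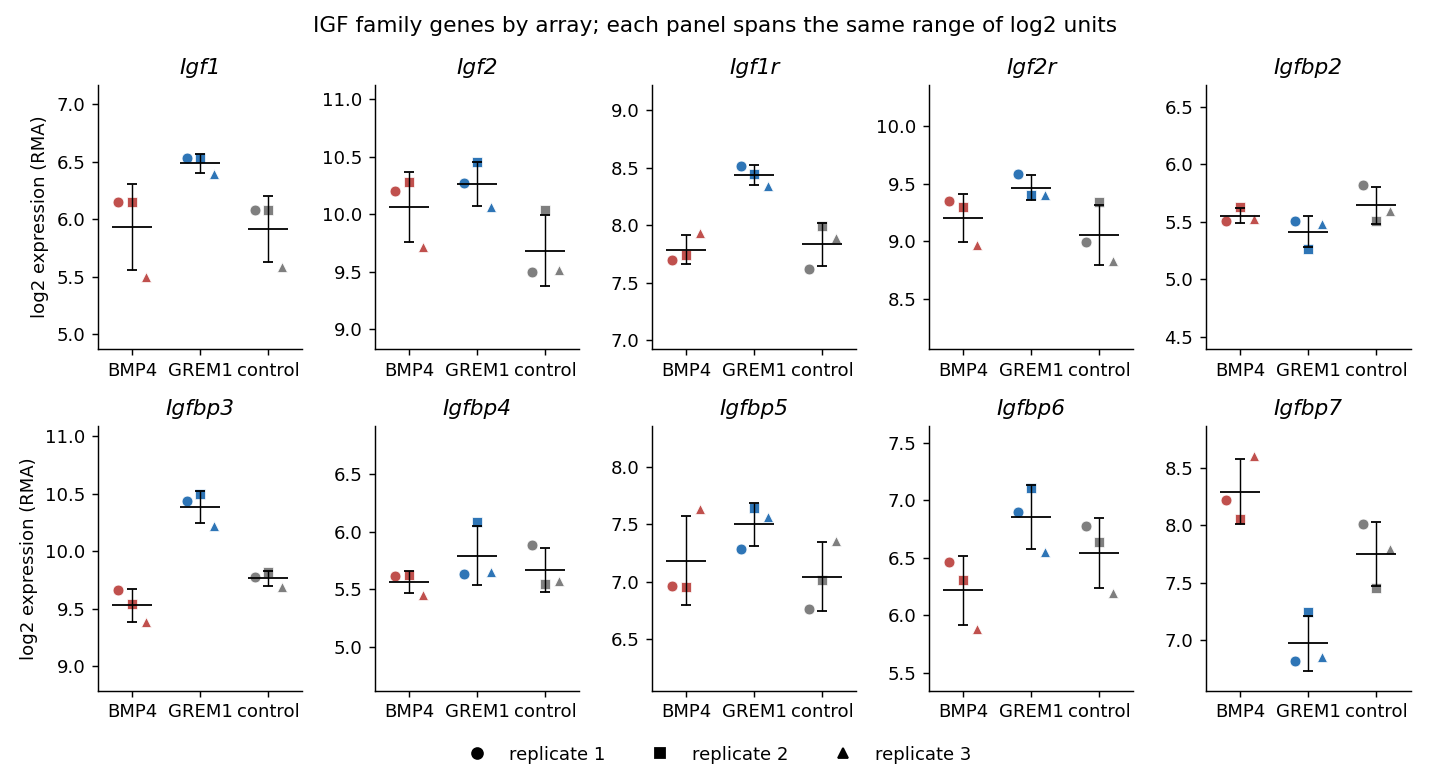
Log2 intensity of the 10 IGF family genes in each array, 1 panel per gene, all panels spanning the same number of log2 units; points are the 3 arrays of the BMP4, GREM1 and control groups with a shape for each replicate number, long lines are group means and bars are ± SD. The GREM1 points of Igf1r (8.34 to 8.52) and Igfbp3 (10.22 to 10.49) lie above, and those of Igfbp7 (6.82 to 7.25) below, all other arrays.

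The sequences just upstream of the annotated starts of the 3 changed genes, and of the ligand Igf1, are shown. Igf1 was added for its motifs: of all members, only its window held GGCGCC or the E-box form CAGCTG. These genes did not move together: Igfbp7 fell with GREM1 while Igf1r and Igfbp3 rose, and Igf1 did not pass. They come from RefSeq, build GRCm38.p6, and cover the 250 bases before the start, written 5′ to 3′ on the gene's strand. Igf1 lies on the plus strand at chr10:87860861-87861110, Igf1r on the plus strand at chr7:67952007-67952256, Igfbp3 on the minus strand at chr11:7213924-7214173 and Igfbp7 on the minus strand at chr5:77408046-77408295. Capitals mark matches to the GC-rich SMAD-binding motif GGCGCC or to the E-box motif CANNTG, which is bound by myogenic basic helix-loop-helix factors.
Igf1: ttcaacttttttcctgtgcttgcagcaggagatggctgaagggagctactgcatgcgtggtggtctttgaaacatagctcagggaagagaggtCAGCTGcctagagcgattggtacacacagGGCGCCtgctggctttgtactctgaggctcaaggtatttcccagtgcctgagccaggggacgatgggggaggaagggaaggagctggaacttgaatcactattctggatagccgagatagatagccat
Igf1r: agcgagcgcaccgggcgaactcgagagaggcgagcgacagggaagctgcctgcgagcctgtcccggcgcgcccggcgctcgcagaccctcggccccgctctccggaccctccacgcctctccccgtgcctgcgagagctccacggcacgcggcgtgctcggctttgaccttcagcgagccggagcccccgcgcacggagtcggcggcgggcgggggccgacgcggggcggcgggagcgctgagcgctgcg
Igfbp3: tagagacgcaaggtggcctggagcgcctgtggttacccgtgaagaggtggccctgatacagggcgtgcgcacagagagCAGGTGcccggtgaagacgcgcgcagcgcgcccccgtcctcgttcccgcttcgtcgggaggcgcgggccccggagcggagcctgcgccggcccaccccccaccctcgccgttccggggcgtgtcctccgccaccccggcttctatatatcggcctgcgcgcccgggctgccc
Igfbp7: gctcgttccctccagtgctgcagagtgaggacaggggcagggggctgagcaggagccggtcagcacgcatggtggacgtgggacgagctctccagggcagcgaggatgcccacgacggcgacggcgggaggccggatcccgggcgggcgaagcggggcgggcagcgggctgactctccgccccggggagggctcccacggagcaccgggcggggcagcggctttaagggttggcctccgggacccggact

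All 10 members had an upstream sequence in the RefSeq table. The windows were searched on both strands for the SMAD motif GGCGCC, the general E-box CANNTG, its form CAGCTG and the TATA box TATAAA. The SMAD motif occurred in 9.59% of 32851 windows of this length, the E-box form CAGCTG in 13.0%, the TATA box in 12.4% and any E-box in 66.2%. Counted back from the start, the Igf1 window held the E-box form beginning at position -157 and the SMAD motif at -128. The Igfbp3 window held an E-box, CAGGTG, at -172, and the letters of these motifs were not in the windows of Igf1r and Igfbp7. Members that did not pass held E-boxes too: Igf2r, Igfbp2, Igfbp4, Igfbp5, Igfbp6 and a window of Igf2. The TATA box was in the windows of Igfbp4, at -28, and Igfbp6, at -148. GC content was 77.6% for Igf1r, 73.2% for Igfbp3 and 74.0% for Igfbp7, against a median of 52.4% over all windows and 52.8% for Igf1. The number of CpG dinucleotides was 42 for Igf1r, 32 for Igfbp3 and 26 for Igfbp7, against a median of 6 and 5 for Igf1. Such a composition was not particular to the changed genes, since windows of members that did not pass were also rich in both: Igf2r had 69.2% GC and 27 CpG, and Igfbp4 had 69.2% GC and 22 CpG. A match or its absence describes these letters only.

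Igf1r, the signalling receptor, measured 7.69, 7.74 and 7.93 in the BMP4 arrays, 8.52, 8.44 and 8.34 in the GREM1 arrays and 7.62, 7.99 and 7.89 in the control arrays. Every GREM1 array was above every other array, while BMP4 and control arrays overlapped. GREM1 raised Igf1r by 0.60 ± 0.11 (SE, 95% interval 0.35 to 0.85, adjusted p = 0.0211). The BMP4 minus control difference was -0.05 ± 0.11, with an interval of -0.30 to 0.21 and an adjusted p of 0.934. The GREM1 call was lost without control replicate 1 (adjusted p = 0.0532), control replicate 3 (0.0594), GREM1 replicate 1 (0.0872) or GREM1 replicate 2 (0.0806), and the difference stayed between 0.50 and 0.63 without these arrays.

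Igf2r, the clearance receptor for Igf2, measured 9.35, 9.30 and 8.97 with BMP4, 9.59, 9.40 and 9.41 with GREM1 and 8.997, 9.34 and 8.83 in controls. The GREM1 arrays were above all control arrays by a narrow margin, and BMP4 and control arrays overlapped. The GREM1 minus control difference was 0.41 ± 0.15 and did not pass (adjusted p = 0.153, and 0.0546 with the replicate block). With BMP4 the difference was 0.15 ± 0.15 (adjusted p = 0.819).

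Igf1, the ligand that muscle makes in response to growth and repair, measured 6.15, 6.15 and 5.50 with BMP4, 6.54, 6.53 and 6.39 with GREM1 and 6.08, 6.08 and 5.58 in controls. Replicate 3 was the lowest array in all 3 groups, and the GREM1 arrays were above all others. The GREM1 minus control difference of 0.57 ± 0.19 had an adjusted p of 0.131, and of 0.0140 with the replicate block. BMP4 and control differed by 0.02 ± 0.19, with an interval of -0.41 to 0.45 (adjusted p = 0.984).

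Igf2, a ligand that myoblasts produce during differentiation, measured 10.20, 10.28 and 9.72 with BMP4, 10.27, 10.45 and 10.06 with GREM1 and 9.50, 10.04 and 9.52 in controls. The lowest GREM1 array was just above the highest control array, and the BMP4 arrays overlapped both groups. The GREM1 minus control difference was 0.58 ± 0.19, with an adjusted p of 0.122, and of 0.0127 with the replicate block. The BMP4 minus control difference was 0.38 ± 0.19 (adjusted p = 0.655).

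Igfbp3, the main IGF carrier in serum, where it forms a complex with the acid-labile subunit, measured 9.67, 9.54 and 9.38 with BMP4, 10.43, 10.49 and 10.22 with GREM1 and 9.78, 9.82 and 9.69 in controls. The 3 groups did not overlap, with BMP4 lowest and GREM1 highest. GREM1 raised it by 0.62 ± 0.10 (95% interval 0.39 to 0.85, adjusted p = 0.0134). The BMP4 minus control difference was -0.23 ± 0.10, with an adjusted p of 0.618. The GREM1 call was lost without control replicate 3 (adjusted p = 0.0559), GREM1 replicate 1 (0.0601) or GREM1 replicate 2 (0.0602), where the difference was 0.56 to 0.59.

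Igfbp7, a related secreted protein that binds IGFs with low affinity, measured 8.22, 8.05 and 8.60 with BMP4, 6.82, 7.25 and 6.85 with GREM1 and 8.01, 7.45 and 7.79 in controls. Here too the 3 groups did not overlap, in the opposite order, with BMP4 highest and GREM1 lowest. GREM1 lowered it by 0.78 on the log2 scale (difference -0.78 ± 0.19, 95% interval -1.20 to -0.36, adjusted p = 0.0493, close to the threshold). The BMP4 minus control difference was 0.54 ± 0.19 (1.45-fold, unadjusted p = 0.0166, adjusted p = 0.520). The GREM1 call for Igfbp7 was lost without any 1 of 7 arrays: the adjusted p was 0.139 without control replicate 1, 0.131 without control replicate 3, 0.0718 without BMP4 replicate 1 and 0.0631 without BMP4 replicate 2. It was 0.163, 0.0704 and 0.117 without GREM1 replicate 1, 2 and 3.

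**Figure D2:**
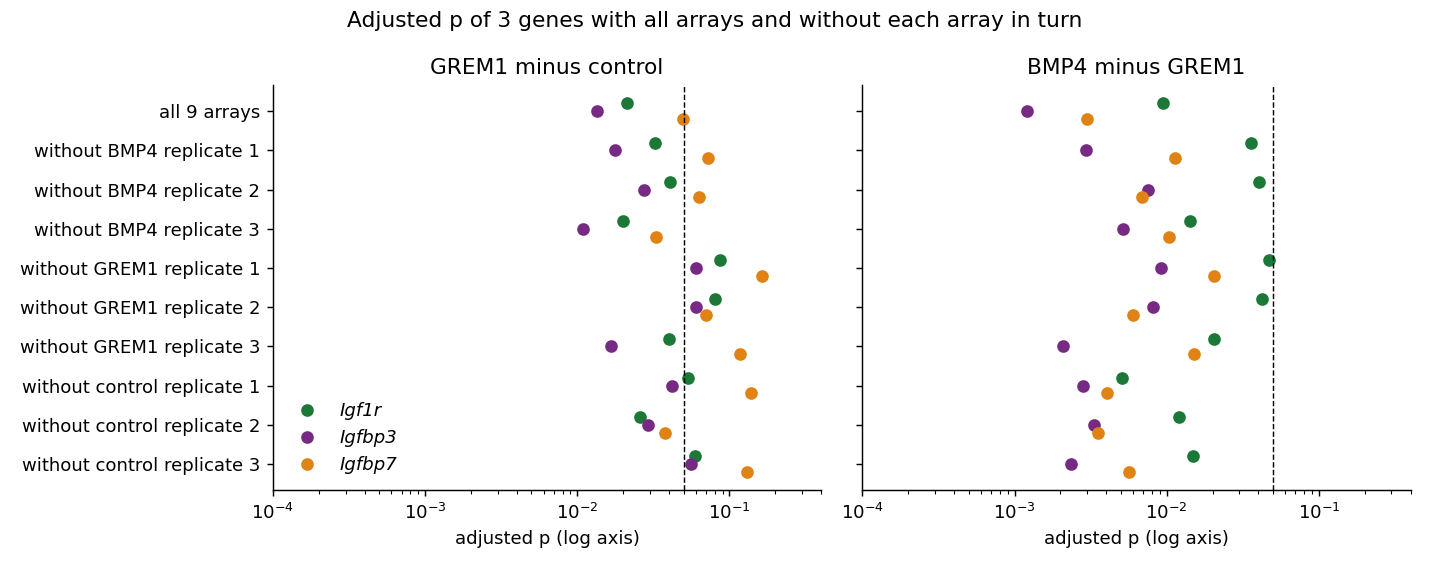
Adjusted p (log axis, limma) of Igf1r, Igfbp3 and Igfbp7 with all 9 arrays and without each array in turn, for GREM1 against control and BMP4 against GREM1; the vertical line is the threshold of 0.05. For GREM1 against control the points fall on both sides of the line, and for BMP4 against GREM1 all points lie under it.

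Igfbp5, which differentiating myoblasts secrete, measured 6.97, 6.95 and 7.63 with BMP4, 7.29, 7.64 and 7.56 with GREM1 and 6.76, 7.01 and 7.36 in controls. All groups overlapped, and replicate 3 was the highest array in the BMP4 and control groups. Its GREM1 minus control difference was 0.45 ± 0.21 (adjusted p = 0.264). With BMP4 the difference was 0.14 ± 0.21 (adjusted p = 0.888).

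Igfbp6, which prefers Igf2 over Igf1, measured 6.46, 6.31 and 5.88 with BMP4, 6.90, 7.11 and 6.56 with GREM1 and 6.78, 6.64 and 6.20 in controls. Replicate 3 was the lowest array in each group, and the control arrays overlapped both treatments. Its differences from control were -0.32 ± 0.20 with BMP4 (adjusted p = 0.720) and 0.31 ± 0.20 with GREM1 (adjusted p = 0.432).

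Igfbp4, the substrate of the protease Pappa, measured 5.61, 5.62 and 5.45 with BMP4, 5.63, 6.09 and 5.65 with GREM1 and 5.89, 5.54 and 5.57 in controls. GREM1 replicate 2 and control replicate 1 were each the high array of their group. Control arrays overlapped both treatments, and all BMP4 arrays were just under all GREM1 arrays. The differences from control were -0.11 ± 0.14 with BMP4 (adjusted p = 0.869) and 0.12 ± 0.14 with GREM1 (adjusted p = 0.691).

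Igfbp2, another IGF carrier, measured 5.51, 5.63 and 5.53 with BMP4, 5.51, 5.26 and 5.48 with GREM1 and 5.82, 5.51 and 5.60 in controls. The GREM1 arrays were all under the control arrays, though the nearest values of both groups round to the same number. The differences from control were -0.09 ± 0.11 with BMP4 (adjusted p = 0.855) and -0.23 ± 0.11 with GREM1 (adjusted p = 0.269).

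**Figure D3:**
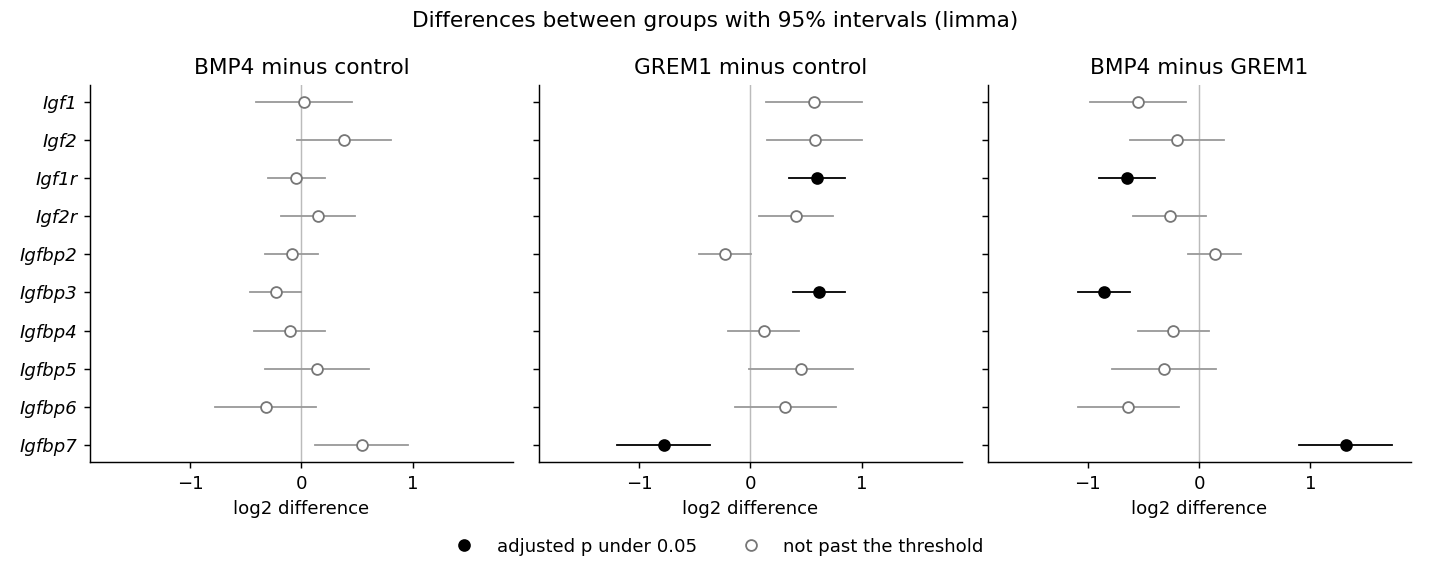
Log2 difference of each IGF family gene with its 95% interval in the 3 comparisons, ordered by role; filled points passed an adjusted p under 0.05 in limma and open points did not. The points of GREM1 minus control are positive for 8 of 10 genes, with Igfbp7 at -0.78 and Igfbp2 at -0.23 the exceptions.

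Set directly against GREM1, BMP4 gave a higher level of Igfbp7 and lower levels of Igf1r and Igfbp3, and these 3 of 10 genes passed against 6.45% of all genes tested (3.62% higher and 2.83% lower). Igfbp7 was 2.49-fold higher with BMP4 than with GREM1 (1.32 ± 0.19, adjusted p = 0.00298). Igfbp3 was 1.81-fold lower (-0.85 ± 0.10, adjusted p = 0.00120), and Igf1r was 1.57-fold lower (-0.65 ± 0.11, adjusted p = 0.00944). All 3 calls held without any single array, with highest adjusted p values of 0.0203 for Igfbp7, 0.00917 for Igfbp3 and 0.0473 for Igf1r.

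The other members did not pass in that comparison. Igfbp6 differed by -0.63 ± 0.20 (adjusted p = 0.109) and Igf1 by -0.55 ± 0.19 (adjusted p = 0.141), with all BMP4 arrays under all GREM1 arrays in both genes. The remaining differences were -0.20 for Igf2, -0.26 for Igf2r, 0.14 for Igfbp2, -0.23 for Igfbp4 and -0.32 for Igfbp5. Before adjustment 5 of the 10 genes fell under 0.05, against 19.4% of all genes.

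Separation of the groups was read the same way in the 3 comparisons. Between BMP4 and GREM1 the arrays did not overlap for 8 of the 10 genes (24.5% of all genes), 2 higher (12.3%) and 6 lower (12.2%) with BMP4. Between GREM1 and control they did not overlap for 7 genes (24.0%), 5 higher (11.3%) and 2 lower (12.7%). Between BMP4 and control they did not overlap for 2 genes (11.2%), Igfbp7 higher (5.31%) and Igfbp3 lower (5.90%).

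Genes around the family were read from 7 lists: other IGF-binding proteins, insulin ligands and receptors, binding-protein proteases with their inhibitors, receptor adaptors, the PI3K-AKT-mTOR relay, FoxO factors with their muscle targets, and regulators of the Igf2 locus and mRNA. Of 83 listed genes 69 were tested. The lists were chosen with earlier results of these data known. Their shares beside those of all genes are therefore descriptive, and no test of a list was run. With GREM1 8 of the 69 passed against control (11.6%, against 4.29% of all genes), 4 higher and 4 lower, and with the replicate block 14 passed higher and 5 lower (27.5%, against 11.6% of all genes with the block). With BMP4 1 passed against control (1.45%, against 0.117%), and between BMP4 and GREM1 14 passed (20.3%, against 6.45%), 7 higher and 7 lower with BMP4.

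Among the 11 tested proteases and inhibitors, Stc2, a stanniocalcin that inhibits Pappa, measured 7.23, 7.31 and 6.91 with BMP4, 8.42, 8.41 and 8.34 with GREM1 and 6.97, 7.51 and 7.09 in controls. GREM1 arrays stood above all others, a rise of 1.20 ± 0.15 over control (2.30-fold, adjusted p = 0.00359). Htra3, a secreted serine protease of the HtrA family, measured 6.60, 6.49 and 6.48 with BMP4, 5.39, 5.46 and 5.11 with GREM1 and 5.78, 5.73 and 5.67 in controls. Its 3 groups did not overlap, and it was the gene of these lists that passed with BMP4 against control (0.80 ± 0.10, 1.74-fold, adjusted p = 0.0249). That call was lost without any 1 of the 3 BMP4 arrays, any 1 of the 3 control arrays or GREM1 replicate 1, with adjusted p values of 0.0525 to 0.125. Htra3 differed by -0.41 ± 0.10 between GREM1 and control (adjusted p = 0.0533, and 0.0194 with the replicate block).

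The gelatinase Mmp2 fell with GREM1 (-0.45, adjusted p = 0.0365). Without 1 array its adjusted p reached 0.122, and the call held in 2 of 9 such fits. With BMP4 the differences of Pappa, which cuts Igfbp4, and of Stc1, a second stanniocalcin, from control were 0.37 (adjusted p = 0.405) and -0.59 (adjusted p = 0.465). Against GREM1, BMP4 gave higher Htra3 (1.21), Mmp2 (0.50) and Pappa (0.42) and lower Stc2 (-1.24) and Stc1 (-0.96). In that comparison the Pappa call held in 2 of 9 fits without 1 array, the Stc1 call in 5 of 9 and the Mmp2 call in 6 of 9. The adjusted p reached 0.142 for Pappa, 0.0597 for Stc1 and 0.0657 for Mmp2.

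Esm1, a secreted proteoglycan with an IGF-binding-protein-like domain, measured 6.22, 6.24 and 6.21 with BMP4, 5.22, 5.42 and 5.35 with GREM1 and 5.96, 6.05 and 5.97 in controls. GREM1 arrays were the lowest, and Esm1 fell by 0.67 against control (difference -0.67 ± 0.08, adjusted p = 0.00321). Kazald1, which shares that domain, differed by -0.44 with GREM1 (adjusted p = 0.0696), and was higher with BMP4 than with GREM1 (0.59, adjusted p = 0.0173). Esm1 was also higher with BMP4 than with GREM1 (0.90, adjusted p = 0.000200). Without 1 array the adjusted p of Kazald1 in that comparison reached 0.0716, and the call held in 6 of 9 fits. The insulin receptor gene Insr differed by 0.43 ± 0.14 with GREM1 (adjusted p = 0.127, and 0.0233 with the replicate block) and by -0.03 ± 0.14 with BMP4 (adjusted p = 0.965).

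Of the 14 tested receptor adaptors none passed with GREM1 against control, while 4 (28.6%) were under 0.05 before adjustment, against 20.0% of all genes. The docking protein Gab1 differed by 0.38 (adjusted p = 0.0505), and Grb10, an adaptor that restrains insulin and IGF receptors, by 0.56 (adjusted p = 0.0651). With the replicate block both passed, at 0.0360 for Gab1 and 0.0051 for Grb10. Grb14, a relative of Grb10, differed by -0.49 (adjusted p = 0.0859). Against GREM1, BMP4 gave lower Grb10 (-0.69, adjusted p = 0.0245) and Gab1 (-0.54, adjusted p = 0.00780). The Grb10 call held in 5 of 9 fits without 1 array and the Gab1 call in 9 of 9.

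Of the 24 tested genes of the PI3K-AKT-mTOR relay 3 passed with GREM1 against control (12.5%, against 4.29% of all genes), and the median difference was 0.22. Rptor, the scaffold of mTOR complex 1, measured 7.48, 7.48 and 7.49 with BMP4, 8.41, 8.26 and 8.26 with GREM1 and 7.45, 7.66 and 7.46 in controls. Its GREM1 arrays lay above all others, by 0.79 ± 0.09 over control on average (adjusted p = 0.00223). The S6 kinase Rps6kb2 rose by 0.38 (adjusted p = 0.0467) and the PI3K regulatory subunit Pik3r1 fell by 0.36 (adjusted p = 0.0447). Each of these smaller calls held in 1 of 9 fits without 1 array, with adjusted p values up to 0.140 for Rps6kb2 and 0.152 for Pik3r1. With the replicate block 7 genes of the relay passed higher and 1 lower (33.3%, against 11.6% of all genes). Against GREM1, BMP4 gave lower Rptor (-0.83, adjusted p = 0.000513) and lower Pik3r2, a further regulatory subunit (-0.46, adjusted p = 0.0241), and higher Pik3r1 (0.33, adjusted p = 0.0491). The last of these held in 1 of 9 fits without 1 array and Pik3r2 in 4 of 9, with adjusted p values up to 0.165 for Pik3r1 and 0.0724 for Pik3r2.

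Among the 11 FoxO genes, Fbxo32, the ubiquitin ligase atrogin-1 of muscle wasting, measured 6.31, 6.37 and 6.15 with BMP4, 7.54, 7.74 and 7.98 with GREM1 and 6.77, 6.97 and 7.07 in controls. The 3 groups did not overlap, with BMP4 lowest. Fbxo32 rose by 0.82 ± 0.13 with GREM1 (adjusted p = 0.00972), and its BMP4 minus control difference was -0.66 ± 0.13 (adjusted p = 0.133). BMP4 was 2.78-fold lower than GREM1 (-1.48, adjusted p = 0.000182). Trim63, the other muscle ubiquitin ligase of the list, differed by 0.81 ± 0.30 with GREM1 (adjusted p = 0.165, and 0.0117 with the replicate block). Cited2 and Foxo4 differed by -0.21 and 0.21 with GREM1, neither passing.

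Hmga2, a chromatin protein of growing cells, fell by 0.58 with GREM1 (adjusted p = 0.0282). That call held in 3 of 9 fits without 1 array, and its adjusted p reached 0.108. It was higher with BMP4 than with GREM1 (0.54, adjusted p = 0.0277), a call that held in 4 of 9 such fits, with an adjusted p of up to 0.107. H19, the imprinted non-coding neighbour of Igf2, differed by 0.03 with GREM1, and by -0.03 after quantile normalization. Ctcf, which binds the imprinting control region between them, differed by -0.11 and Igf2bp3, which binds Igf2 mRNA, by -0.07. None of the 3 passed.

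**Figure D4:**
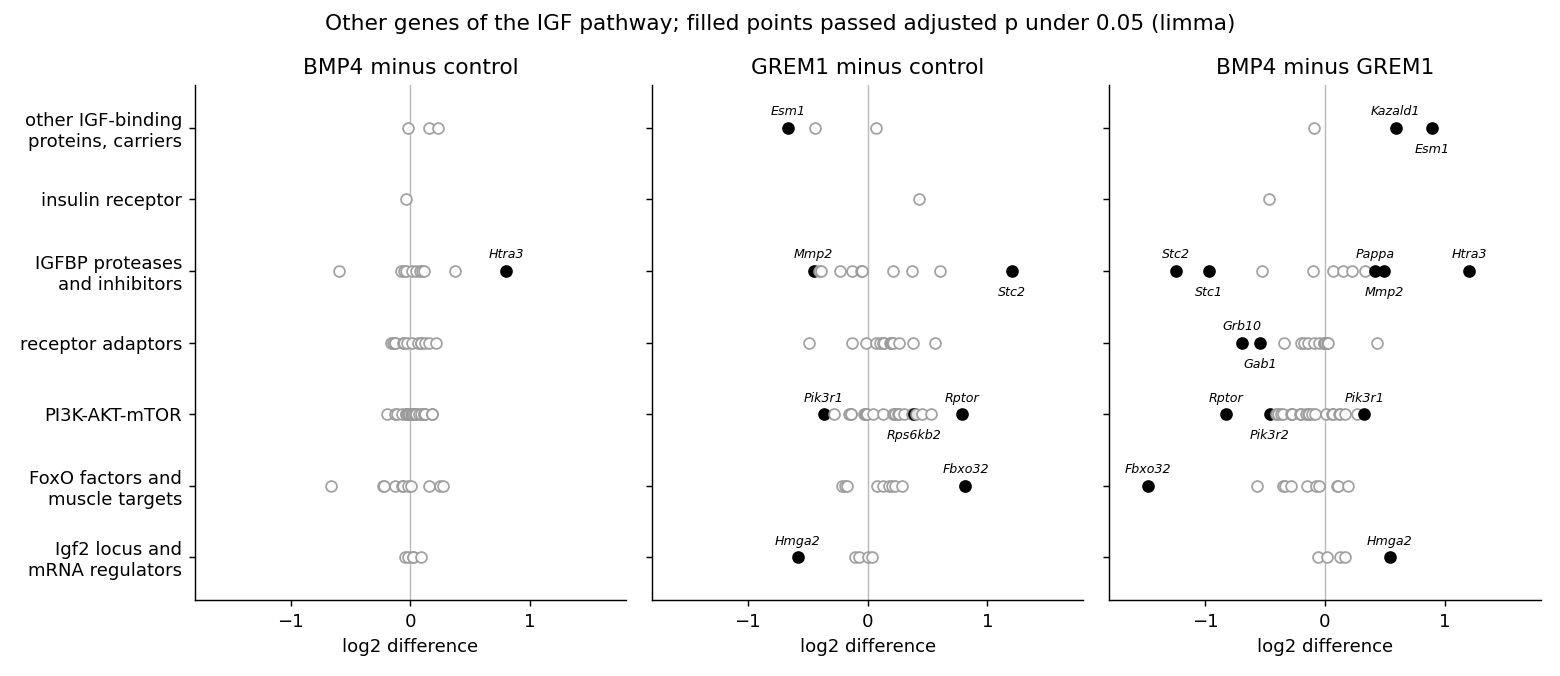
Log2 differences of the 69 tested genes of 7 IGF pathway lists, 1 row per list and 1 panel per comparison; filled, named points passed an adjusted p under 0.05 in limma and open points did not. Stc2, Rptor and Fbxo32 are the highest filled points for GREM1 minus control, and Htra3 is the filled point for BMP4 minus control.

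Genes of muscle differentiation also moved with GREM1, and markers of other cells are given after them. The part of either in the IGF differences was not tested. These lists were also chosen with earlier results of these data known, so their shares are descriptive. Of 24 differentiation genes 6 passed as higher with GREM1 (25.0%, against 4.29% of all genes) and 0 as lower: Cdkn1c by 2.00, Ckm by 1.70, Mymx by 1.02, Mef2d by 0.88, Mef2a by 0.87 and Chrng by 0.67. In that list 22 of 24 differences were positive, with a median of 0.38. With the replicate block 10 passed as higher and 1, Myf5 (-0.85, adjusted p = 0.000973), as lower (45.8%, against 11.6%). With BMP4 0 of the 24 passed in limma (0.117% of all genes), also with the replicate block (0.379% of all genes). Before adjustment 1, Myod1, fell under 0.05, against 8.02% of all genes. Of the 10 myoblast markers 3 passed as higher with GREM1 and 0 as lower, where 4.29% of all genes passed. The 3 were Cdh15, Itga7 and Ncam1, by 0.91, 1.00 and 0.53. Among these 10 markers 8 differences were positive. Pax7 and Myf5 averaged lower with GREM1 (7.39 and 6.98) than in controls (7.59 and 7.83). With the replicate block 4 of the 10 passed as higher and 1 as lower, where 11.6% of all genes passed. Without 1 array the calls of Mymx and Ncam1 held in 2 of 9 fits each, those of Mef2d in 6 and of Chrng in 7.

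In bulk RNA, fewer cells of a type and less RNA per cell cannot be told apart. Of 9 fibroblast markers 5 were above the filter in every BMP4 array and 4 in every GREM1 and control array, and the list averaged 4.33 to 4.44 with BMP4, 4.31 to 4.39 with GREM1 and 4.36 to 4.42 in controls. Pdgfra, Dpt, Dcn and Lum were not above the filter in all arrays of any group. Of 9 endothelial markers 3 were above it in every array, with list means of 3.85 to 3.96 with BMP4, 3.96 to 4.06 with GREM1 and 3.92 to 4.01 in controls, and Cdh5, Kdr and Tek were not. Leukocyte markers numbered 3 of 7 above the filter in each group, with Ptprc and Adgre1 not above it. Of the pericyte and smooth muscle list 6 of 8 were above the filter in each group, with list means of 5.05 to 5.14 with BMP4, 5.00 to 5.11 with GREM1 and 5.00 to 5.05 in controls, and Kcnj8 and Higd1b were not. Tenocyte markers were above it for 5 of 7 genes and Schwann cell markers for 4 of 5 in each group. In limma 0 of the 28 tested markers of these other cells passed in either comparison with control. Of all genes 0.117% passed with BMP4 and 4.29% with GREM1, so a count of 0 among 28 says little. Before adjustment 7 were under 0.05 with BMP4 (25.0%, against 8.02% of all genes), 2 higher and 5 lower, and 4 with GREM1 (14.3%, against 20.0%). With the replicate block 2 of the 28, the tenocyte factor Scx and the pericyte gene Abcc9, passed with GREM1, where 11.6% of all genes passed. Their lists did not move as a whole, since 3 of 5 tested tenocyte and 3 of 6 tested pericyte differences were positive. Between BMP4 and GREM1, 2 of the 28 passed as lower with BMP4 (2.83% of all genes), Scx (-0.95) and Abcc9 (-0.91). Cspg4 (0.56) was the 1 that passed as higher (3.62% of all genes). Without 1 array these calls held in 9, 4 and 7 of 9 fits for Scx, Abcc9 and Cspg4 in that order.

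Genes with profiles nearest to those of the 3 changed members were taken as the 3 tested genes with the smallest root mean square distance over the 9 arrays, each profile being centred on its own mean. For Igf1r these were Abhd6 (0.0881 log2 units), Sorcs2 (0.0972) and Ccn4 (0.1001), where the median distance to all genes was 0.350. For Igfbp3 they were Gm10532 (0.0595), Rnf122 (0.0942) and Dyrk1b (0.0959), with a median of 0.397. For Igfbp7 they were 2310008N11Rik (0.166), G0s2 (0.185) and Dpysl3 (0.186), with a median of 0.599. Within the family the closest profiles were those of Igf2 and Igf2r (0.161), Igf1 and Igf2r (0.176) and Igf1r and Igfbp3 (0.186).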

How the data were processed

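RNA of 9 myoblast samples was amplified, biotin-labelled and hybridised to Affymetrix arrays. Per the submitters' processing notes, the authors used RMA in Affymetrix Expression Console, and the deposited values are log2 intensities. Array model: not given in the sources used here. Genome build: not given there either. Of 24973 probe sets, 24015 had 1 gene symbol in the platform annotation and 958 had none. The brightest of several probe sets was kept, giving 24011 genes.

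Genes above their array's 30th percentile in at least 3 arrays (17141) were fitted with limma 3.58.1 in R 4.3.3 on all 9 arrays in 3 groups, with Benjamini-Hochberg adjustment, two-sided tests and a threshold of 0.05. The script was tested on simulated data. Precision is limited by the number of arrays (median SE 0.115, with 6 residual and 3.47 prior degrees of freedom). Same-numbered arrays deviated together, with correlations of 0.340, 0.170 and 0.580 between BMP4 and control and 0.242, 0.118 and 0.473 between GREM1 and control. All exceeded 0.1, the limit set for reading them as paired, but the main fit held no block. Some differently numbered arrays exceeded it too: control 1 with GREM1 2 (0.159), control 2 with BMP4 1 (0.144) and BMP4 1 with GREM1 2 (0.233). Arrays of replicate 3 correlated negatively with every differently numbered array of another group, down to -0.475. Replicates 1 and 2 were thus not shown to be matched by number. Between BMP4 and GREM1 the same-numbered correlations were 0.223, 0.0884 and 0.423, so that comparison missed the limit. The replicate block was run as an alternative in every comparison.

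All members are named. Of the lists, called genes are named, and in lists with under 2 calls the 3 uncalled genes with the smallest p were eligible. The members and lists were chosen with earlier results of these data known. Alternatives covered the replicate block, the samples fitted, an intensity trend, array weights, normalization, the filter, probe-set choice and each array left out. Listed genes without a named probe set were not analysed here.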

Additional observations from a re-analysis of the deposited data

How the results depend on the processing

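The member counts with BMP4 against control were 0 under every alternative run. With the replicate block, 5 members passed for GREM1 against control and 5 for BMP4 against GREM1, where Igf1 (adjusted p = 0.0126) and Igfbp6 (0.00264) were added. Over all genes tested the block raised the share that passed to 11.6% and 12.8% in these comparisons, against 4.29% and 6.45% without it, and to 0.379% for BMP4 against control, against 0.117%. The same-numbered correlations all exceeded the limit of 0.1 for GREM1 against control, the lowest being 0.118. For BMP4 against GREM1 the lowest was 0.0884. That limit does not establish which arrays were matched, and the labels do not state it. Without 1 array, 0 to 3 members passed for GREM1 against control, where 1.43% to 5.24% of all genes passed. None were left without control replicate 3, GREM1 replicate 1 or GREM1 replicate 2. For BMP4 against GREM1 3 passed in each fit, where 3.27% to 6.74% of all genes passed. The Igfbp7 call with GREM1 was also lost with only the 2 groups compared (adjusted p = 0.0693), array weights (0.0741), medians centred (0.0527) and no filter (0.0660).

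In the pathway lists of 69 tested genes, the block gave 19 calls for GREM1 against control (27.5%, against 11.6% of all genes). It gave 22 for BMP4 against GREM1 (31.9%, against 12.8%). For GREM1 against control it moved the calls to 8 in the PI3K relay, against 3 without it, to 2 adaptors against 0, and to 4 proteases and inhibitors against 2. The count for BMP4 against control stayed at 1 with the block (1.45%, against 0.379% of all genes). Centring the array medians gave 4 calls among the 69 for GREM1 against control, where 3.84% of all genes passed. For BMP4 against control, fitting only the 2 groups gave 0 (0.0292% of all genes) and array weights gave 2 (0.397% of all genes). Without 1 array the counts were 0 to 1 for BMP4 against control, 4 to 10 for GREM1 against control and 6 to 13 for BMP4 against GREM1. Over all genes 0.0117% to 0.0992%, 1.43% to 5.24% and 3.27% to 6.74% passed in these fits, in that order.

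Of all values of single members under the alternatives, 536 kept direction and call, 18 lost the call, 5 gained it and 11 turned direction. For the other listed genes 1026 kept both, 93 lost the call, 22 gained it and 11 turned. The turned values were all uncalled differences, and here Igf1, Igf1r, Igfbp2, Igfbp4 and Igfbp5 are members and Igfbp1, Insr, Hmga2, Igf2bp1 and H19 are listed genes. Without 1 array, the BMP4 minus control difference ranged over -0.15 to 0.24 for Igf1, -0.15 to 0.0326 for Igf1r, -0.15 to 0.0009 for Igfbp2, -0.17 to 0.0021 for Igfbp4, -0.0861 to 0.29 for Igfbp5, -0.065 to 0.0429 for Igfbp1, -0.0887 to 0.0578 for Insr, -0.16 to 0.0475 for Hmga2 and -0.0031 to 0.0404 for Igf2bp1, and the GREM1 minus control difference of Igfbp4 over -0.0264 to 0.23. With array weights Igfbp2 was 0.0170 with BMP4, Igfbp1 was 0.0160 with quantile normalization and 0.0128 with medians centred, Insr was 0.0023 with medians centred, and H19 was -0.0281 with GREM1 under quantile normalization. The cause of these changes was not tested. All 10 members were above the filter in all 9 arrays. The filter is a rank within each array and not a measure of background, and some markers of other cell types passed it in all arrays too. Whether background limited the differences of the dimmer members was not tested.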
